A study of Arabidopsis thaliana with 14 samples.

Results

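The family 9 glycosyl hydrolases of Arabidopsis thaliana are the plant cellulases, endo-beta-1,4-glucanases that cut beta-1,4-linked glucan chains in or near the cell wall. The genes described here are those whose symbol in the array annotation begins with GH9 and whose probe set is annotated to that gene alone. The rule gave 15 genes of the 13513 with a single-gene probe set. Of these 15, 2 belonged to subclass A, 10 to subclass B and 3 to subclass C. By chromosome, 5 lay on chromosome 1, 3 on chromosome 2, 1 on chromosome 3 and 6 on chromosome 4. Of 25 family genes listed for comparison, another 4 shared 2 probe sets that were each annotated to 2 family genes, and 6 had no named probe set and were not analysed here. GH9A1, the KORRIGAN gene of cellulose synthesis, is among those 6.

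The subclasses differ in how the protein is held in the wall. Subclass A enzymes are anchored in a membrane and act with cellulose synthesis. Subclass B enzymes are secreted, and subclass C enzymes are secreted and carry an additional carbohydrate-binding module. In growing tissue these enzymes are linked to wall loosening and expansion, and in tissue that separates or is broken down they are linked to wall dissolution. In the seed, the endosperm surrounds the embryo and is largely consumed as the embryo grows, while the seed coat, which is maternal tissue, builds thick walls and mucilage in its outer layers.

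The study used seeds of the Arabidopsis accession Ws-0 with embryos at the bending-cotyledon stage, with cotyledons of 100 to 140 µm, from plants of 38 to 46 days kept in continuous light. Sections of fixed, paraffin-embedded seeds were cut by laser capture into 6 compartments. These were the embryo proper, 3 regions of endosperm named micropylar, peripheral and chalazal by their place in the seed, and 2 regions of seed coat, the chalazal one and the rest, called general. Whole seeds formed a seventh group, and each group had 2 biological replicates, for 14 ATH1 arrays, which hold a set of short probes for each transcript. The labels give no mutation or treatment for any group. The RNA entering amplification was 2 to 5 ng for the micropylar endosperm and 5 to 6 ng for the other groups, so that for the micropylar endosperm the input and the compartment cannot be told apart. In captured tissue, fewer cells of a type and less RNA per cell cannot be told apart. The micropylar endosperm arrays are replicates 1 and 3. Their cell type field names the embryo proper, and they were grouped by their titles and descriptions. How many plants stood behind a replicate was not given in the sources used here.

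Signal intensities are given as deposited, on a linear scale on which the trimmed mean of every array is 500. Array medians ran from 99.0 to 188, and a probe set entered the tests where some group had both of its arrays above their own medians. This held for 14765 probe sets. Differences are given on the log2(intensity + 32) scale, which understates the change of dim probe sets, with the standard error (SE) from a limma fit over all 14 arrays. A difference is described as higher or lower where limma's Benjamini-Hochberg adjusted p was under 0.05 and its size was at least 1. Only 2 arrays per group limit the precision of every value.

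The marker lists gave the following description of the captured tissue. They were chosen with earlier results of these data known, so they are no independent check of it. The summed intensity of 5 embryo marker genes was 9235 to 9521 in the embryo proper and 234 to 1776 in the other compartments, with the micropylar endosperm at 523 and 1776. One of these markers, PHV, was brighter in the peripheral endosperm (857 and 787) than in the embryo proper (541 and 562) and made up most of the peripheral sum, so that the list is no clean check there. The sum of 6 seed coat marker genes was 45432 to 55577 in both seed coat regions and 778 to 4705 in the other compartments. In the general seed coat SBT1.7 (31182 and 34457) made up most of this sum. SWEET10 (19.9 and 26.8) and PER36 (171 and 117) were dim there and marked the chalazal seed coat only. The sum of 4 endosperm marker genes was 26307 and 26936 in the peripheral endosperm and 4508 and 9823 in the micropylar endosperm, but 87.0 and 243 in the chalazal endosperm, where this list therefore gives no check of the label. Of the same 4, the regulators AGL62 and IKU2 were dim on every array, so that the sum rested on SWEET11 and KRS.

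Of the 15 family genes, 8 passed the filter on low intensities: GH9C1, GH9C2, GH9A3, GH9B5, GH9B7, GH9B8, GH9B13 and GH9B18. The other 7 were GH9A4, GH9B6, GH9B11, GH9B12, GH9B16, GH9B17 and GH9C3. The tested genes did not share one pattern. GH9C1 and GH9B8 were bright in the peripheral endosperm and next in the micropylar endosperm, and GH9C2 was also brightest there. GH9B7 and GH9B5 were bright in the seed coat. GH9A3 was brightest in the chalazal and peripheral endosperm, and GH9B13 in the embryo proper.

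Between pairs of compartments, the number of the 8 tested family genes that differed stands beside the share of all tested probe sets that did. The embryo proper differed from the micropylar endosperm in 3 genes (17.3% of all probe sets), from the peripheral endosperm in 4 (22.3%) and from the chalazal endosperm in 4 (37%). It differed from the chalazal seed coat in 2 (40.6%) and from the general seed coat in 5 (37.3%). Within the endosperm, the micropylar and peripheral regions differed in 1 gene (6.31%), the micropylar and chalazal regions in 5 (36.5%) and the peripheral and chalazal regions in 4 (34.9%). The micropylar endosperm differed from the chalazal seed coat in 3 (32.3%) and from the general seed coat in 4 (29.2%). For the peripheral endosperm these counts were 4 (35.2%) and 5 (31.6%), and for the chalazal endosperm 3 (33.5%) and 6 (37%). Both seed coat regions differed from each other in 3 genes (16.4%): GH9C1, GH9B7 and GH9B8, all lower in the chalazal one. A gene passes the filter through the group where it is bright, so these counts say nothing of the family as a whole. The call for GH9B8 in the last pair (1.39, limma adjusted p = 0.0425) did not hold without any 1 of the 4 seed coat arrays, at 1.08 to 1.71 with limma adjusted p of 0.0521 to 0.235, nor without any 1 of the embryo proper or whole seed arrays, at 1.39 with limma adjusted p of 0.0513 to 0.0649.

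**Figure D1:**
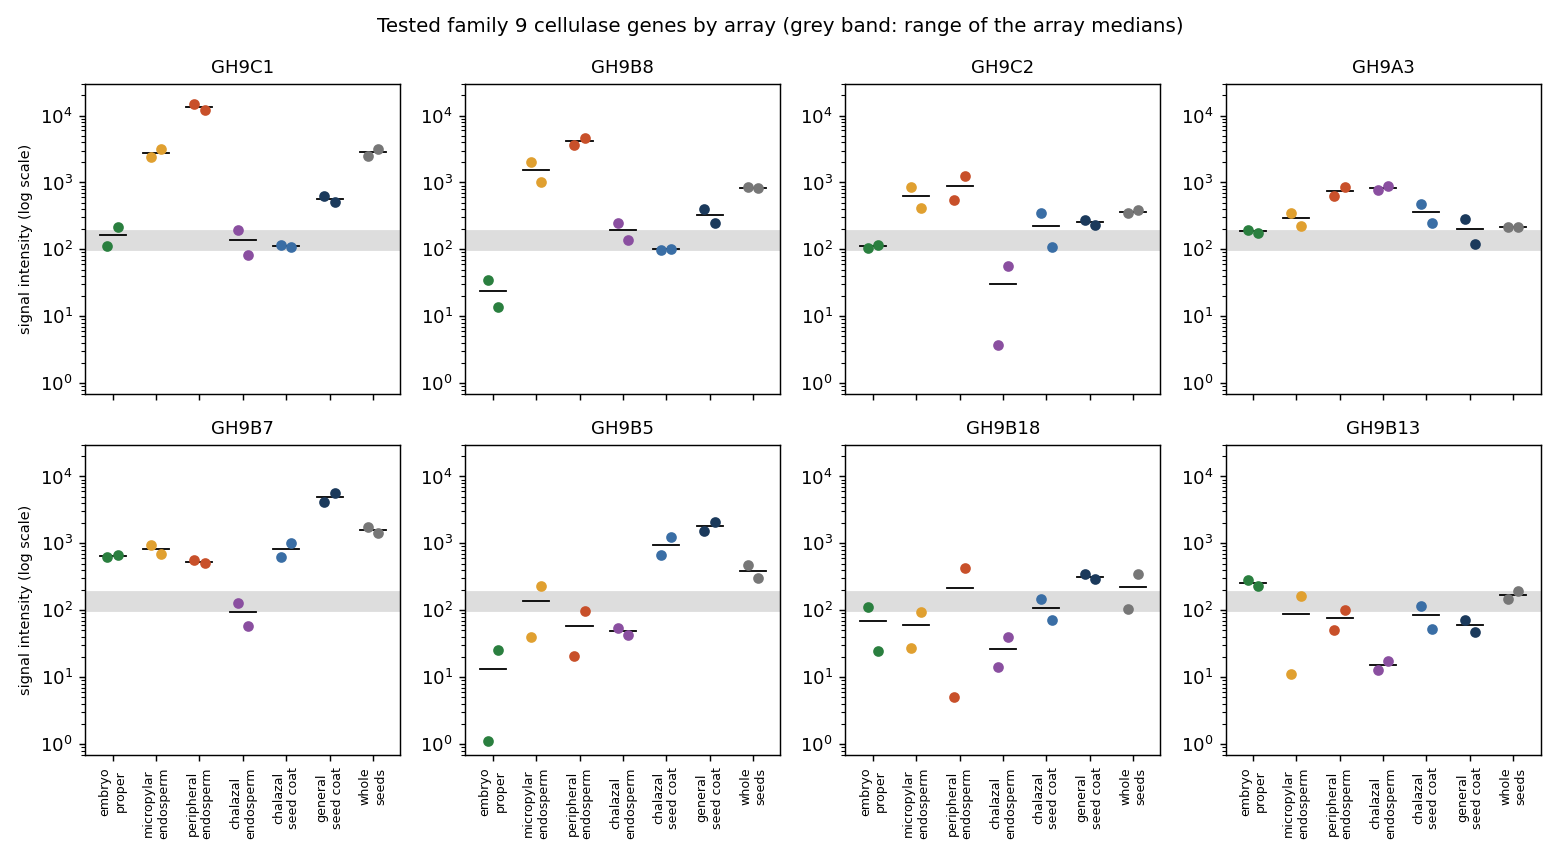
Deposited signal intensity (log axis) of the 8 tested family 9 genes on each of the 14 arrays, 1 panel per gene, with 2 points per group, a short line at the group mean and a grey band over the range of array medians (99.0 to 188). GH9C1 lies at 12274 and 14825 in the peripheral endosperm and GH9B7 at 4174 and 5598 in the general seed coat.

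GH9C1 (AT1G48930) encodes a subclass C enzyme that has been described in root hairs and in the endosperm. Its intensity in the peripheral endosperm was 14825 and 12274, and in the micropylar endosperm it was 2383 and 3184. In the general seed coat it was 621 and 508. The arrays of these groups did not overlap with each other or with the remaining compartments. In the embryo proper it was 111 and 218. It was 194 and 81.1 in the chalazal endosperm, and 117 and 108 in the chalazal seed coat. These 6 arrays lay around the array medians and overlapped. Whole seeds gave 2445 and 3191, close to the micropylar arrays and far below the peripheral ones.

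GH9C1 reached higher levels in the peripheral endosperm than in each of the other 5 compartments, which held for 0.549% of all tested probe sets. The log2 difference was 2.28 ± 0.40 (SE, n = 2 arrays per group, limma adjusted p = 0.00364) against the micropylar endosperm and 4.51 ± 0.40 (limma adjusted p = 6.81e-07) against the general seed coat. It was 6.16 against the embryo proper, 6.40 against the chalazal endosperm and 6.55 against the chalazal seed coat. The last 3 groups were at the intensity of a typical dim probe set, so that these differences depend on the offset of 32 added before the logarithm. GH9C1 was thus highest in 1 endosperm region, the peripheral, and near the array median in another, the chalazal.

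The micropylar endosperm came next in the order of GH9C1 levels, above the general seed coat by 2.23 (limma adjusted p = 0.000506). The general seed coat was above the endosperm at the chalaza by 1.89 (limma adjusted p = 0.00127) and above the chalazal seed coat by 2.04 (limma adjusted p = 0.0018). Its difference of 1.65 from the embryo proper passed the test (limma adjusted p = 0.00355), but without embryo proper replicate 1 it was 1.25 with a limma adjusted p of 0.0696. The 3 lowest groups were not separated. The embryo proper exceeded the chalazal endosperm by 0.24 (95% interval -0.61 to 1.09) and the chalazal seed coat by 0.39 (-0.46 to 1.24). Between the 2 chalazal groups the difference was 0.15 (-0.70 to 0.99).

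GH9B8 (AT2G32990), a secreted subclass B enzyme, had a similar order in the endosperm. It gave 3692 and 4670.2 in the peripheral endosperm and 2018 and 1032 in the micropylar endosperm. The general seed coat gave 400.4 and 249, the chalazal endosperm 249 and 139, and the chalazal seed coat 99.4 and 102. The embryo proper was lowest, at 34.4 and 13.7, below every other array. Whole seeds gave 857 and 823.

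In the peripheral endosperm GH9B8 was higher than in the embryo proper by 6.25 ± 0.45 (SE, n = 2 arrays per group, limma adjusted p = 4.57e-08) on the log2 scale. It was higher than in the chalazal seed coat by 4.98, than in the chalazal endosperm by 4.25 and than in the general seed coat by 3.59 (limma adjusted p = 1.53e-05 for the last). The difference from the micropylar endosperm was 1.502 (95% interval 0.55 to 2.46) and missed the threshold with a limma adjusted p of 0.0567, although the arrays of these 2 groups did not overlap. With an offset of 100 in place of 32 it was 1.46 with a limma adjusted p of 0.0221, and without chalazal endosperm replicate 2 it was 1.502 with a limma adjusted p of 0.0491. GH9B8 is therefore not given as enriched in the peripheral endosperm alone.

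The micropylar endosperm exceeded the general seed coat in GH9B8 by 2.08 (limma adjusted p = 0.00215). It exceeded the chalazal endosperm by 2.75, the chalazal seed coat by 3.48 and the embryo proper by 4.74. The embryo proper was lower than the general seed coat by 2.66 and lower than the chalazal endosperm by 1.99. Between the chalazal endosperm and its neighbours in the order, the difference was 0.73 from the chalazal seed coat (limma adjusted p = 0.233) and 0.67 from the general seed coat (limma adjusted p = 0.266, the seed coat being the brighter).

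**Figure D2:**
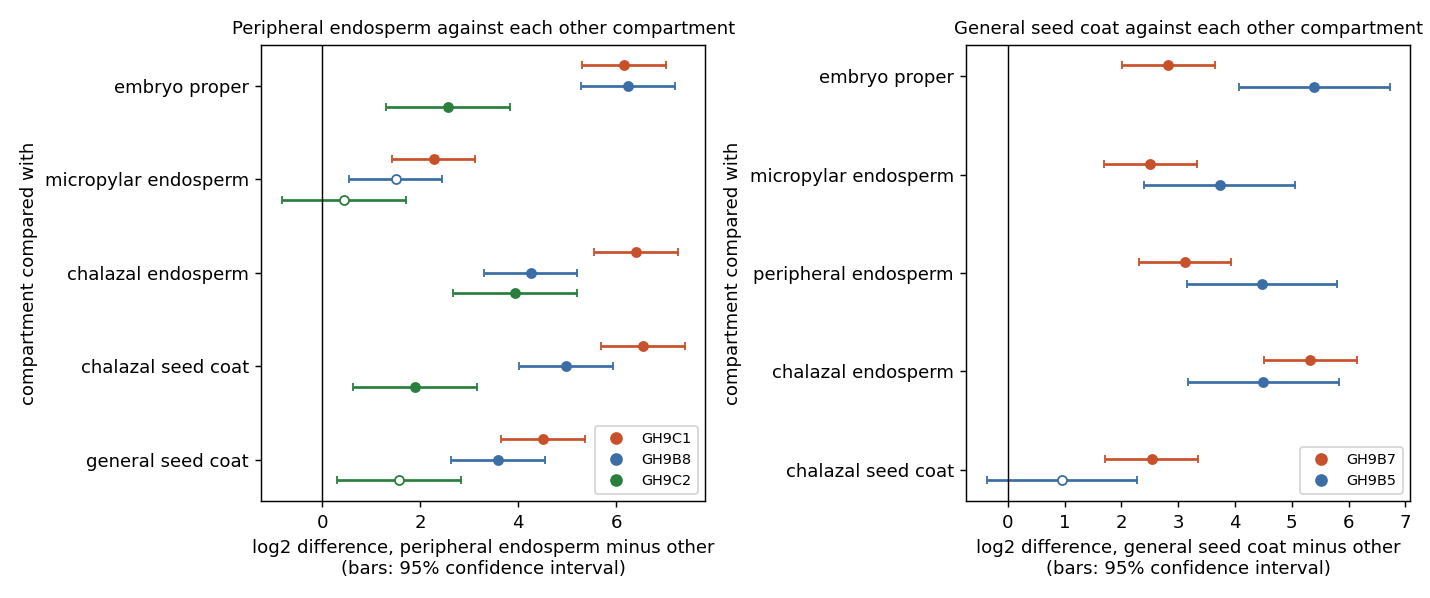
Log2 differences on the log2(intensity + 32) scale with 95% intervals, for GH9C1, GH9B8 and GH9C2 as peripheral endosperm minus each other compartment and for GH9B7 and GH9B5 as general seed coat minus each other compartment. Filled points passed the test and open points did not; among the open ones are GH9B8 against the micropylar endosperm (1.502) and GH9B5 against the chalazal seed coat (0.95).

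Each gene's level can be read against its own mean in the peripheral endosperm. GH9C1 stood at 17.6% and 23.5% of that mean on micropylar replicates 1 and 3, and GH9B8 at 48.3% and 24.7%. The endosperm marker SWEET11, a sugar exporter, stood at 48.3% and 24.1% on the same arrays, and KRS, which encodes an endosperm peptide needed for the sheath around the embryo, at 27.8% and 11.2%. GH9C1 was thus the higher on replicate 3, whereas GH9B8 and both markers were higher on replicate 1. In the general seed coat GH9C1 was at 4.58% and 3.75% of its peripheral mean and GH9B8 at 9.58% and 5.95%. SWEET11 was there at 4.74% and 3.93% and KRS at 5.54% and 4.95%. In the chalazal seed coat the genes parted, with SWEET11 at 8.68% and 9.08%, GH9C1 at 0.866% and 0.794%, GH9B8 at 2.38% and 2.43%, and KRS at 0.0197% and 1.18%. GH9C1 thus stood near both markers in the general seed coat and below SWEET11 in the chalazal one. SWEET11 was brighter in the chalazal seed coat (1003 and 1050) than in the chalazal endosperm (3.99 and 56.4), so that it is no clean endosperm marker there. The part of endosperm RNA in the seed coat values was not tested.

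**Figure D3:**
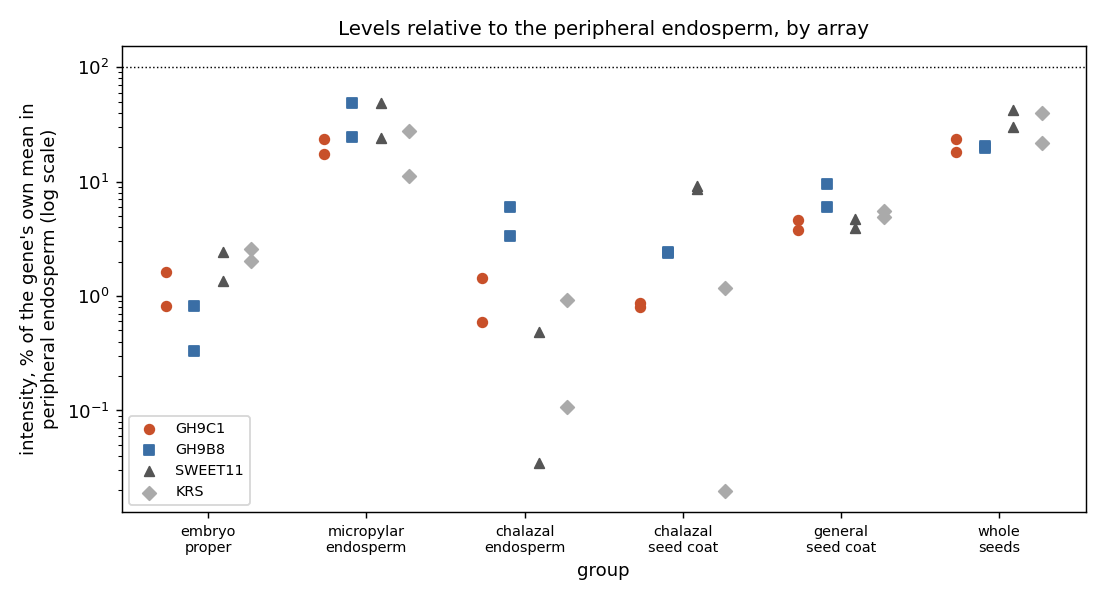
Level of GH9C1, GH9B8, SWEET11 and KRS on each array as a percent of the gene's own mean in the peripheral endosperm (log axis). On the general seed coat arrays GH9C1 (4.58% and 3.75%), SWEET11 (4.74% and 3.93%) and KRS (5.54% and 4.95%) lie close together, with GH9B8 (9.58% and 5.95%) above them.

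GH9C2 (AT1G64390), also named CELLULASE6 and described in fruit dehiscence, is the other tested subclass C gene. It gave 539 and 1250.0 in the peripheral endosperm and 867 and 409 in the micropylar endosperm, and these overlapped. It gave 279 and 234 in the general seed coat. The chalazal seed coat 347 and 107, and the embryo proper 106 and 118. The chalazal endosperm was lowest, at 3.70 and 56.5, with no overlap with any other group. Whole seeds gave 349 and 384. GH9C2 was higher in the peripheral than in the chalazal endosperm by 3.93 ± 0.60 (SE, n = 2 arrays per group, limma adjusted p = 7.84e-05) and in the micropylar than in the chalazal endosperm by 3.49 (limma adjusted p = 0.000231).

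The peripheral and micropylar endosperm differed in GH9C2 by 0.44 (95% interval -0.82 to 1.71), with the sign turned without peripheral replicate 2 (-0.14) or micropylar replicate 3 (-0.07). The peripheral endosperm was above the embryo proper by 2.57 (limma adjusted p = 0.00512), which with an offset of 1 was 2.86 with a limma adjusted p of 0.0518. The difference of 1.57 from the general seed coat missed the threshold (limma adjusted p = 0.053), but passed it without peripheral replicate 1 (2.16, limma adjusted p = 0.0292) or without either chalazal endosperm or either chalazal seed coat array (limma adjusted p of 0.041 to 0.0439). The general seed coat was above the chalazal endosperm by 2.35 (limma adjusted p = 0.00494), which without chalazal endosperm replicate 1 was 1.7002 with a limma adjusted p of 0.0709.

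GH9A3 (AT4G24260) encodes KORRIGAN3, a membrane-anchored subclass A enzyme known from the bundle sheath of leaves. It was brightest in the chalazal endosperm, at 783 and 893, beside 631 and 850.4 in the peripheral endosperm. The chalazal seed coat gave 478 and 247, the micropylar endosperm 354 and 226, the general seed coat 286 and 122, and the embryo proper 194 and 178. The chalazal and peripheral endosperm overlapped and lay above every array of the other compartments. Whole seeds gave 216 and 217.

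In the chalazal endosperm GH9A3 was higher than in the embryo proper by 2.00 ± 0.47 (SE, n = 2 arrays per group, limma adjusted p = 0.00287) and higher than in the general seed coat by 1.97 (limma adjusted p = 0.00317). The chalazal and peripheral endosperm differed by 0.18 (95% interval -0.81 to 1.18). The peripheral endosperm was above the general seed coat by 1.79 (limma adjusted p = 0.00777), but without general seed coat replicate 2 this was 1.27 with a limma adjusted p of 0.0987. Its difference of 1.81 from the embryo proper (limma adjusted p = 0.0103) lost the call without either embryo array, at 1.87 with a limma adjusted p of 0.0612 without replicate 1 and 1.76 with one of 0.0765 without replicate 2. The peripheral and micropylar endosperm differed by 1.28 with a limma adjusted p of 0.115. Neither the chalazal nor the peripheral endosperm passed the test against the chalazal seed coat, the next brightest compartment.

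GH9B7 (AT1G75680) was brightest in the general seed coat, where it gave 4174 and 5598. Whole seeds gave 1784 and 1410.4. The chalazal seed coat gave 633 and 1031, the micropylar endosperm 960.0 and 701, the embryo proper 628 and 679, and the peripheral endosperm 561 and 501. The chalazal endosperm was lowest, at 129 and 59.2. Arrays of the general seed coat lay above, and the chalazal endosperm arrays below, every array of the other compartments.

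GH9B7 was higher in the general seed coat than in each of the other 5 compartments, which held for 2.5% of all tested probe sets. The log2 difference was 2.53 ± 0.38 (SE, n = 2 arrays per group, limma adjusted p = 0.000206) against the chalazal seed coat and 2.51 (limma adjusted p = 0.000126) against the micropylar endosperm. It was 2.83 against the embryo proper, 3.11 against the peripheral endosperm and 5.33 against the chalazal endosperm. GH9B7 was also lower in the chalazal endosperm than in each of the other compartments, by 2.22 against the peripheral endosperm, 2.50 against the embryo proper, 2.80 against the chalazal seed coat and 2.82 against the micropylar endosperm. The 4 intermediate groups were close: the chalazal seed coat and embryo proper differed by 0.30 (limma adjusted p = 0.571), with the sign turned (-0.04) without chalazal seed coat replicate 2. The micropylar and peripheral endosperm differed by 0.60 (limma adjusted p = 0.370).

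GH9B5 (AT1G19940) was bright in both seed coat regions. It gave 1543 and 2109 in the general seed coat and 676 and 1239.9 in the chalazal seed coat. The embryo proper gave 1.10 and 25.3, the peripheral endosperm 20.8 and 96.6, and the chalazal endosperm 55.3 and 43.4. These embryo and endosperm arrays were all below their array medians. The micropylar endosperm gave 40.3 on replicate 1 and 233 on replicate 3. The summed seed coat markers were 3132 and 3967 on the same arrays, but only 3 of the 6 were higher on replicate 3 (DFR, MUCI10 and PER36), while SBT1.7, SWEET10 and BAN were lower. The part of seed coat RNA in the GH9B5 value was not tested. Whole seeds gave 474 and 306.

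In the general seed coat GH9B5 was higher than in the embryo proper by 5.40 ± 0.63 (SE, n = 2 arrays per group), than in the chalazal endosperm by 4.50, than in the peripheral endosperm by 4.48 and than in the micropylar endosperm by 3.73. In the chalazal seed coat it was higher than in the embryo proper by 4.45, than in the chalazal endosperm by 3.55 and than in the peripheral endosperm by 3.53. The difference of 2.78 between the chalazal seed coat and the micropylar endosperm passed the test (limma adjusted p = 0.00251), but without micropylar replicate 1 it was 1.84 with a limma adjusted p of 0.0581. The 2 seed coat regions differed by 0.95 (95% interval -0.37 to 2.28, limma adjusted p = 0.339), with the general seed coat the brighter on both arrays. Unlike GH9B7, GH9B5 was therefore not separated between the seed coat regions.

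GH9B13 (AT4G02290) was brightest in the embryo proper, at 286 and 234. The micropylar endosperm gave 11.1 and 163, the chalazal seed coat 115 and 53.2, the peripheral endosperm 50.6 and 101, and the general seed coat 72.5 and 47.5. The chalazal endosperm was lowest among the compartments by its mean, at 12.6 and 17.6. Whole seeds gave 146 and 195. The embryo arrays lay above all other arrays, at a low intensity.

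The embryo proper was above the chalazal endosperm in GH9B13 by 2.63 ± 0.62 (SE, n = 2 arrays per group, limma adjusted p = 0.00291). It was also above the general seed coat by 1.67 (limma adjusted p = 0.0419), but that call was lost in 9 of 22 alternative settings, among them without any 1 of the embryo proper, general seed coat or whole seed arrays (1.48 to 1.87, with limma adjusted p of 0.0518 to 0.174). Its differences of 1.66 from the micropylar endosperm, 1.47 from the peripheral endosperm and 1.38 from the chalazal seed coat missed the threshold, with limma adjusted p of 0.075, 0.099 and 0.086. The last passed without either micropylar array, with limma adjusted p of 0.0436 and 0.0441. The summed embryo markers were 523 on micropylar replicate 1 and 1776 on replicate 3, the array with the higher GH9B13 value. Of the 5 markers, TWS1, PAP85 and PHV were higher on replicate 3. STOMAGEN (17.1 and 10.8) and YAB3 (8.63 and 7.64) were lower there and far below the array medians on both, against 856 or more in the embryo proper. Without replicate 3 the GH9B13 difference from the micropylar endosperm was 2.75 with a limma adjusted p of 0.00983.

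GH9B18 (AT4G39010) gave 344 and 294 in the general seed coat, and its replicates disagreed elsewhere. The peripheral endosperm gave 5.09 on replicate 1 and 426 on replicate 2. The embryo proper gave 112 and 24.5, the micropylar endosperm 27.7 and 94.6, the chalazal endosperm 14.2 and 39.4, and the chalazal seed coat 145 and 71.7. Whole seeds gave 105 and 347. The difference between the general seed coat and the peripheral endosperm was 1.43 with a limma adjusted p of 0.233. It became -0.39 without peripheral replicate 1, and 3.24 with a limma adjusted p of 0.00437 without peripheral replicate 2.

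The general seed coat was above the chalazal endosperm in GH9B18 by 2.61 ± 0.88 (SE, n = 2 arrays per group, limma adjusted p = 0.026). This call did not hold when any 1 of those 4 arrays was left out: the difference was then 2.295 or 2.92 without a chalazal endosperm array and 2.50 or 2.71 without a general seed coat array, with limma adjusted p of 0.0625 to 0.134. For the general over the chalazal seed coat the difference was 1.37 with a limma adjusted p of 0.324. No other pair of compartments passed the test for GH9B18. GH9B16, GH9B17 and GH9B18 follow each other on chromosome 4 with 0 protein-coding genes between them in the RefSeq table of the TAIR10.1 assembly. GH9B16 ran from 4.52 to 141 over the 14 arrays and GH9B17 from 11.003 to 152, and no group had both of its arrays above the median for either gene.

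The 7 untested family genes had values of 1.27 to 232 with a median of 36.6, and 5 of their 98 values lay above the array median. GH9B6 was at 1.48 to 16.6, and GH9C3, the remaining subclass C gene, at 11.5 to 121. GH9A4, the other subclass A gene, was brightest on general seed coat replicate 2 at 159, and gave 86.3 on replicate 1. GH9B11 was brightest on chalazal endosperm replicate 1 at 232, and gave 60.4 on replicate 2. GH9B12, its neighbour on chromosome 2 with 0 protein-coding genes between them, ran from 2.63 to 143. None of these 7 had a level above the array median on both replicates of a group, which does not show that the genes were silent.

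**Figure D4:**
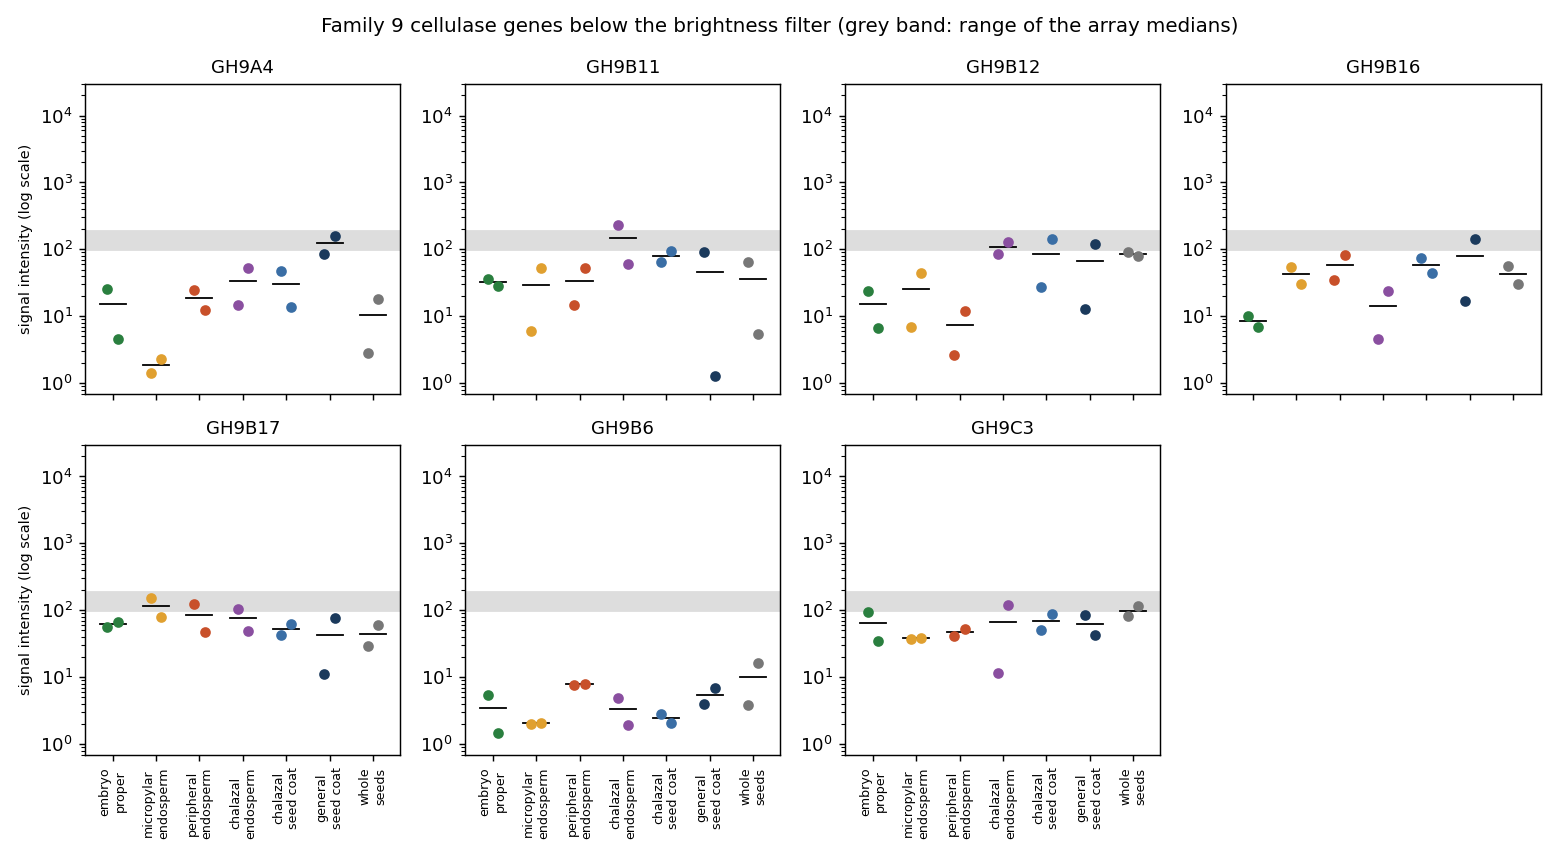
Deposited signal intensity (log axis) of the 7 family 9 genes that did not pass the filter on low intensities, on each of the 14 arrays, with a short line at the group mean and a grey band over the range of array medians (99.0 to 188). Of the 98 values, 5 lie above the median of their own array.

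A probe set annotated to 2 subclass B genes was bright in the general seed coat at 1008 and 773. The chalazal seed coat gave 164 and 189, and every array of the embryo proper and the endosperm gave between 6.79 and 142. It was higher in the general seed coat than in each other compartment, with the smallest difference of 2.14 against the chalazal seed coat (limma adjusted p = 0.0218). That call did not hold without any 1 of the 4 seed coat arrays, at 1.95 to 2.32 with limma adjusted p of 0.0598 to 0.116. Which of the 2 genes gave the signal cannot be told apart. The other shared probe set reached at most 27.7 on any array.

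The region comparisons bring these patterns together. In the mean of the 3 endosperm regions against the mean of both seed coat regions, 3 family genes were higher and 2 lower, beside 14.2% and 18.5% of all tested probe sets. GH9C1 was higher by 2.64 and GH9B8 by 2.37, while GH9B5 was lower by 3.76 and GH9B7 by 2.39. GH9A3 was higher by 1.04, which was 0.78 without general seed coat replicate 2, 0.82 without chalazal seed coat replicate 2, 0.94 without micropylar replicate 1 and 0.97 without peripheral replicate 2, all under the threshold of 1. The mean of the endosperm regions covers opposite levels, since GH9C1 and GH9C2 were high in the peripheral and low in the chalazal endosperm.

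In the embryo proper against the mean of the endosperm, 1 family gene was higher and 3 were lower, beside 14.6% and 10.9% of all tested probe sets. GH9B8 was lower by 4.33 and GH9C1 by 3.27. GH9A3 was lower by 1.45 (limma adjusted p = 0.00932), a call that did not hold without either embryo array (1.40 and 1.503, with limma adjusted p of 0.103 and 0.0808). GH9B13 was higher by 1.92 (limma adjusted p = 0.00904), which also did not hold without either embryo array (1.79 and 2.05, with limma adjusted p of 0.112 and 0.0679).

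In the embryo proper against the mean of the seed coat, 1 family gene was higher and 3 were lower, beside 21% and 21.3% of all tested probe sets. GH9B5 was lower by 4.92, GH9B8 by 1.96 and GH9B7 by 1.56. GH9B13 was higher by 1.52 (limma adjusted p = 0.0283), which did not hold without either embryo array, chalazal seed coat replicate 2 or general seed coat replicate 2, at 1.33 to 1.65 with limma adjusted p of 0.0629 to 0.164.

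**Figure D5:**
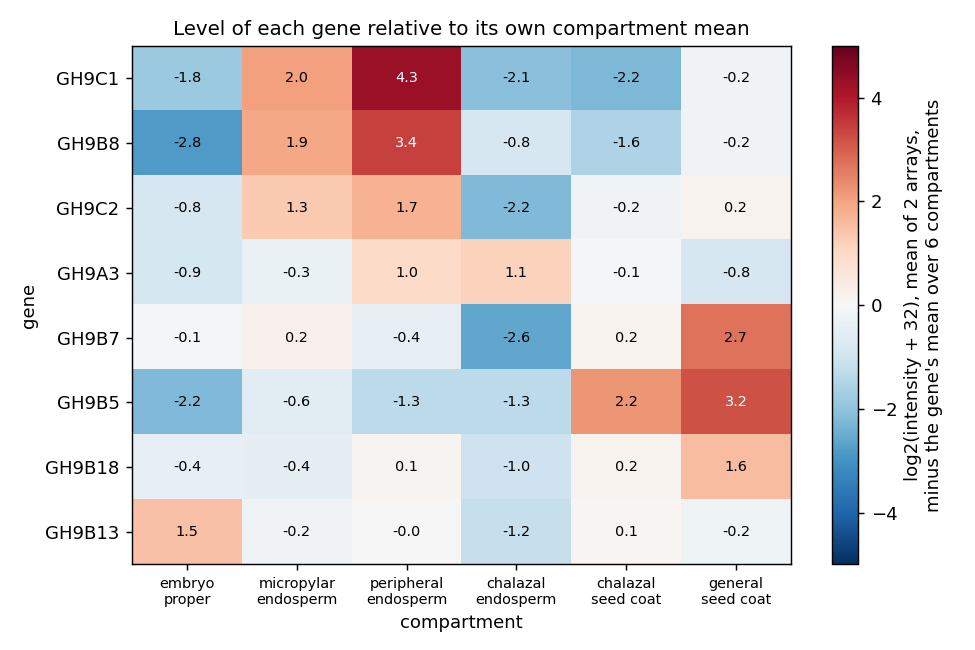
Mean log2(intensity + 32) of the 8 tested family 9 genes in each compartment, as the difference from the gene's own mean over the 6 compartments. GH9C1, GH9B8 and GH9C2 are high in the peripheral and micropylar endosperm, GH9B7 and GH9B5 in the seed coat, and GH9A3 in the chalazal and peripheral endosperm.

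Whole seeds were compared with the mean of the 6 compartments on the log2 scale, where 3 family genes were higher and 0 lower, beside 6.37% and 1.06% of all tested probe sets. GH9C1 was higher by 2.06 (limma adjusted p = 0.000424). GH9B7 was higher by 1.13 (limma adjusted p = 0.0203) and GH9B8 by 1.17 (limma adjusted p = 0.0423), and neither call held without either whole seed array, with limma adjusted p of 0.147 to 0.316. The call for GH9B8 also did not hold without embryo proper replicate 2, micropylar replicate 3, either chalazal seed coat array or general seed coat replicate 2, with limma adjusted p of 0.0518 to 0.0708. On the linear scale the whole seed mean of GH9C1 was 97.7% of the plain average of its compartment means, that of GH9B8 79.4% and that of GH9B7 122%. A mean of logarithms gives little weight to a gene that is bright in 1 compartment, so the 2 scales place GH9C1 differently. GH9A3 was at 49.6% of its plain compartment average.

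The family genes were compared with each other over the 12 compartment arrays by correlating log2(intensity + 32), as a description, since the arrays share their groups and amplification. GH9C1 and GH9B8 had a Pearson r of 0.93 (Spearman rho 0.80). GH9C1 and GH9C2 had an r of 0.78, and GH9C2 and GH9B8 one of 0.72. GH9B5 and GH9B7 had an r of 0.68, and GH9A3 and GH9B7 one of -0.73. GH9C1, GH9B8 and GH9C2 were all brightest in the peripheral endosperm on these same arrays, so their likeness restates that trait. Subclass B held more than 1 pattern: GH9B8 went with GH9C1, while GH9B5 and GH9B7 were high in the seed coat. With 1 tested gene of subclass A, 5 of B and 2 of C, the subclasses as such were not compared.

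Among 8167 tested single-gene probe sets outside the family, the 5 most like GH9C1 by Pearson r were AT2G41040 (0.977), AT2G35880 (0.976), AT4G33600 (0.965), AT3G18180 (0.962) and SBTI1.1 (0.961), the last a subtilisin-type protease gene. Those most like GH9B8 were AT1G04380 (0.980), scpl48 (0.970), AT5G59050 (0.965), AT1G12080 (0.963) and AT5G57500 (0.952). Those most like GH9C2 were AT2G24860 (0.945), AT5G42200 (0.941), SWEET11 (0.929), AT3G62860 (0.928) and AT4G38810 (0.920). SWEET11, from the endosperm marker list, was thus among the 5 closest to GH9C2 by Pearson r, but it was not among the 5 closest by Spearman rho.

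For GH9B7 they were HWS (0.962), AT5G12970 (0.947), AT1G29470 (0.941), AT1G55840 (0.936) and AT3G43960 (0.935), and for GH9B5 they were AT5G52500 (0.986), AT3G14280 (0.985), AT2G25220 (0.982), AT1G16705 (0.980) and AT1G71910 (0.979). For GH9A3 they were AT3G06890 (0.905), AT1G05370 (0.899), AT1G65240 (0.897), AT1G14060 (0.891) and AT2G20320 (0.886). For GH9B13 they were AT3G62510 (0.916), AT5G55660 (0.908), AT1G21090 (0.903), AT5G05210 (0.899) and AT4G01460 (0.880). For GH9B18 they were CCT1 (0.926), AT1G48090 (0.873), AT5G55400 (0.828), NET1B (0.826) and AT1G31690 (0.826). The dimmer genes GH9B13 and GH9B18 had lower values than GH9C1, GH9B8 and GH9B5. So did GH9A3, which was above the array median on 13 of the 14 arrays.

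Other genes of wall polysaccharides gave the setting for the cellulases. Of 16 listed genes of cellulose synthesis, 3 had single-gene probe sets and were tested, as was 1 of 9 genes of xyloglucan synthesis and trimming. Of the 7 endo-beta-mannanase genes, 0 had a single-gene probe set. Among 18 expansin genes, whose proteins loosen walls without cutting them, 9 were tested, and 1 of 9 XTH genes, which remodel xyloglucan, was tested.

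In the endosperm against the seed coat, 2 of the 9 expansins were higher and 2 lower, beside 14.2% and 18.5% of all tested probe sets, with a median log2 difference of 0.21 against -0.04 over all tested probe sets. In the same comparison 1 of the 3 cellulose synthesis genes was higher and 1 lower, with a median of -0.81. The expansin shares are near those of all probe sets, and 3 genes are too few to compare. In the micropylar against the peripheral endosperm, 4 of the 9 expansins were higher and 0 lower, beside 4.05% and 2.26% of all tested probe sets, with a median of 1.80 against 0.05. In that comparison 0 of the 8 tested cellulases were higher and 1, GH9C1, was lower. Genes pass the filter through the group where they are bright, so these counts say nothing of either family as a whole. Of the 4 expansin calls, only that of EXPA4 was followed through the alternative settings.

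EXPA4 was an expansin gene of the micropylar endosperm, at 4983 ± 1111 (SD, n = 2) against 1315 ± 786 in the peripheral endosperm. The log2 difference of 2.01 passed the test (limma adjusted p = 0.0328), but in 11 of 22 alternative settings it did not, among them 7 of the 14 that left out 1 array, and without peripheral replicate 1 it was 1.38 with a limma adjusted p of 0.226. EXPA15 was at 2386 ± 293 (SD, n = 2) in the embryo proper, above the micropylar endosperm by 2.96 (limma adjusted p = 0.000864). EXLA1, an expansin-like gene, was at 30504 ± 3292 (SD, n = 2) in the general seed coat and 85.1 ± 10.4 in the embryo proper, a difference of 8.03 (limma adjusted p = 3.60e-09). EXPB1 in the peripheral endosperm exceeded its chalazal seed coat level by 4.52 (limma adjusted p = 8.56e-06).

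Of the cellulose synthesis genes, CC1, a companion of the cellulose synthase complex, was at 3326 ± 860.2 (SD, n = 2) in the general seed coat and 74.4 ± 61.5 in the chalazal endosperm, a difference of 5.09 (limma adjusted p = 6.65e-08). GH9B7 was likewise highest in the general seed coat and lowest in the chalazal endosperm. Unlike GH9B7, CC1 did not pass the test in the general seed coat against every other compartment. Its difference from the peripheral endosperm was 0.62, under the threshold. CC2, a related companion gene, was higher in the general than in the chalazal seed coat by 2.99. COB, which encodes the wall protein COBRA, was at 1001 ± 266 (SD, n = 2) in the micropylar endosperm and 86.9 ± 85.5 in the chalazal seed coat. That difference of 3.31 (limma adjusted p = 0.00319) was 2.50 with a limma adjusted p of 0.0615 without chalazal seed coat replicate 2.

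CSLC4, a synthase of the xyloglucan backbone, was at 291 ± 67.7 (SD, n = 2) in the peripheral endosperm against 11.5 ± 8.61 in embryo proper, a difference of 2.89 (limma adjusted p = 0.00121). XTH32 was at 1063 ± 456 (SD, n = 2) in the micropylar endosperm against 19.3 ± 12.2 in embryo proper, a difference of 4.37 (limma adjusted p = 0.000228). Both wall genes and the cellulases GH9C1 and GH9B8 were therefore higher in these endosperm regions than in the embryo proper. CSLC4 was also higher in the general seed coat (263 ± 88.3, SD, n = 2) than in the embryo proper. Its peripheral endosperm level exceeded that of the general seed coat by only 0.15.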

How the data were processed

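RNA from 6 laser-captured seed compartments and from whole seeds was amplified and hybridised to 14 ATH1 arrays, 2 per group. The authors deposited linear signal intensities made with GCOS, per the submitters' processing notes, and in the deposited table each array's mean after trimming 2% at each end is 500. The software version was not given in the sources used here. Probe sets were named from the platform annotation: of 22746 non-control probe sets, 13513 had 1 gene symbol, 503 several and 8730 none, and 13436 of the single genes, with all 15 family genes, matched the RefSeq table. The family genes and all lists were chosen with earlier results of these data known. Every family gene is named, with the 5 probe sets most like each tested one, and of each wall gene list up to 4 members with the largest differences.

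The values were analysed as log2(intensity + 32) in R 4.3.3 with limma 3.58.1 (lmFit, eBayes with an intensity trend), all 14 arrays in 1 fit with groups as the only term. A probe set was tested where 1 or more groups had both arrays above their own median (14765 probe sets), and the Benjamini-Hochberg adjustment ran over all of these in each comparison. The 15 pairs of compartments, 3 region comparisons and whole seeds were compared. Data were simulated for peripheral endosperm against general seed coat, with 14765 probe sets. Of these, 50 bright ones changed by each of 4 sizes and the others stayed flat. For changes of 1.5 on the log2 scale 22% were recovered, for 2 56%, for 3 76% and for 4 92%, with 3 false calls. Dim probe sets were not changed there, and 31.6% of all tested probe sets passed in the real comparison. These rates therefore do not carry over to these data. Alternatives were other offsets, quantile normalization, no filter and a stricter one, no trend, compartment arrays alone, a replicate block and arrays left out.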

Additional observations from a re-analysis of the deposited data

How the results depend on the processing

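Of 72 differences of family genes that passed the test, 52 passed under every alternative in which they could be computed, 20 were lost under at least 1 and 0 changed sign. Up to 23 alternatives were run for a difference: 67 of the 72 had a value with the stricter filter, 69 with compartment arrays alone and 44 without both micropylar arrays. The enrichment of GH9C1 in the peripheral endosperm and of GH9B7 in the general seed coat held under all 23, over the remaining compartments where the micropylar arrays were left out. Leaving out 1 array moved the count of passing differences between 50 and 63 for pairs of compartments (56 with all arrays), 10 and 15 for regions (13), 2 and 3 for enrichment (2), and 1 and 3 for whole seeds (3). The whole seed count was 1 with an offset of 100. Among the 18 differences printed that missed the threshold, 7 changed sign in some setting. GH9C2 between peripheral and micropylar endosperm was -0.16 with the replicate block and -0.14 to 1.03 with an array left out. With an array left out, GH9C1 ran from -0.26 to 0.74 between embryo proper and chalazal endosperm (-0.16 without embryo proper replicate 2), from -0.016 to 0.79 between embryo proper and chalazal seed coat, and from -0.35 to 0.64 between the chalazal regions. GH9A3 ran from -0.023 to 0.39 between chalazal and peripheral endosperm, GH9B7 from -0.042 to 0.63 between chalazal seed coat and embryo proper, and GH9B18 from -0.39 to 3.24 between general seed coat and peripheral endosperm. Fewer arrays stand behind each of these, and the cause of the change with the replicate block was not tested. Without both micropylar arrays, 41 differences between pairs passed, and regions and whole seeds were not run in that setting. GH9B8 then also counted as enriched in the peripheral endosperm, since the only comparison it had missed, with the micropylar endosperm, was absent. That setting is therefore no check of its enrichment. With compartment arrays alone there is no whole seed comparison, and the counts were 54, 13 and 2. Quantile normalization moved the median of all probe sets by up to 0.17.

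The replicate numbers showed no pairing in the 6 groups checked, which were whole seeds and all compartments but the micropylar endosperm. Over the 15 pairs of these groups, deviations of same-numbered arrays correlated between -0.031 and 0.045, with 0 pairs over 0.1. With the replicate block the counts were 56 for pairs, 13 for regions, 2 for whole seeds and 2 for enrichment, and GH9B13 between embryo proper and micropylar endosperm passed (2.77, limma adjusted p = 0.0156). Dim probe sets limit the result for the 7 untested genes.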
